A study of Mus musculus with 6 samples.

Results

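The probe sets of cytochrome P450 families 1, 2 and 3 were examined in liver RNA of 3 pools of Nrf2 knockout (KO) mice and 3 pools of Nrf2 wild-type (WT) mice. A member was any probe set annotated to exactly 1 gene whose symbol starts with Cyp1, Cyp2 or Cyp3 directly followed by a letter, so that genes such as Cyp17a1 and Cyp27a1 were outside. This gave 52 probe sets of 43 genes among the 45037 probe sets other than controls. Of these, 38 probe sets of 31 genes were bright enough to be tested, their mean normalised log2 intensity reaching the median of all probe sets. All mice were of the C57B/SV129 strain and 10 weeks old, and each pool held RNA of 3 animals. The labels call the pools of a genotype biological replicates, without saying whether any share animals, so p-values measure the spread between pools. Neither the sex of the animals nor the build of the knockout allele is given in the sources used here.

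Cytochrome P450 enzymes of families 1 to 3 are heme-containing monooxygenases of the endoplasmic reticulum, which take electrons from NADPH through P450 oxidoreductase and oxidise drugs, pollutants, steroids, bile acids and fatty acids. In liver they sit mostly in hepatocytes. The aryl hydrocarbon receptor (Ahr) drives Cyp1a genes, the constitutive androstane receptor (Nr1i3) drives Cyp2b10, and the pregnane X receptor (Nr1i2) drives Cyp3a11, while growth hormone sets the sex-biased members. Nrf2, encoded by Nfe2l2, binds antioxidant response elements and drives many conjugating and reducing enzymes that act after P450 oxidation.

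No member passed the test. With limma and Benjamini-Hochberg adjustment over all 22519 probe sets tested, 0 of 38 member probe sets had an adjusted p under 0.05, against 32 probe sets in all (0.142%), and the smallest adjusted p of a member was 0.101. At an unadjusted p under 0.05 there were 6 member probe sets (15.8%), against 7.63% of all probe sets. Of these 6, 2 were higher in KO livers (Cyp2c38 and Cyp2c39), where the share of all probe sets was 3.75%, and 4 were lower (Cyp2d40, Cyp2c70, Cyp2d22 and Cyp2j6), where it was 3.88%. In gene terms 0 of 31 genes passed, against 0.144% of all 11102 genes, and 6 of 31 had an unadjusted p under 0.05, against 8.23%.

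Most members lay slightly lower in KO livers. The log2 difference (KO minus WT) was below 0 for 27 of 38 member probe sets, against 49.2% of all probe sets, with a member median of -0.08 and a median of 0.00 over all probe sets. Without KO pool 2, 23 of 38 were below 0, and leaving out any other pool gave between 26 and 28. The pools of the 2 genotypes did not overlap on the normalised scale for 6 member probe sets (15.8%), against 13.4% of all. All 6 were lower in KO livers (Cyp2c70, Cyp2d40, Cyp2d9, 1 of the 2 Cyp2d22 probe sets and both Cyp2j6 probe sets), against 6.57% of all probe sets. In bulk liver, fewer cells of a type and less RNA per cell cannot be told apart.

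Differences were small where they could be bounded. The 95% interval of the fold change lay within 1.5-fold in either direction for 19 of the 38 probe sets and within 2-fold for 30. A point difference of at least 2-fold was seen for 1 probe set, that of Cyp2d40, and of at least 1.5-fold for 5. Fold changes are on the scale of log2(intensity + 5.26), which understates those of dim probe sets.

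**Figure D1:**
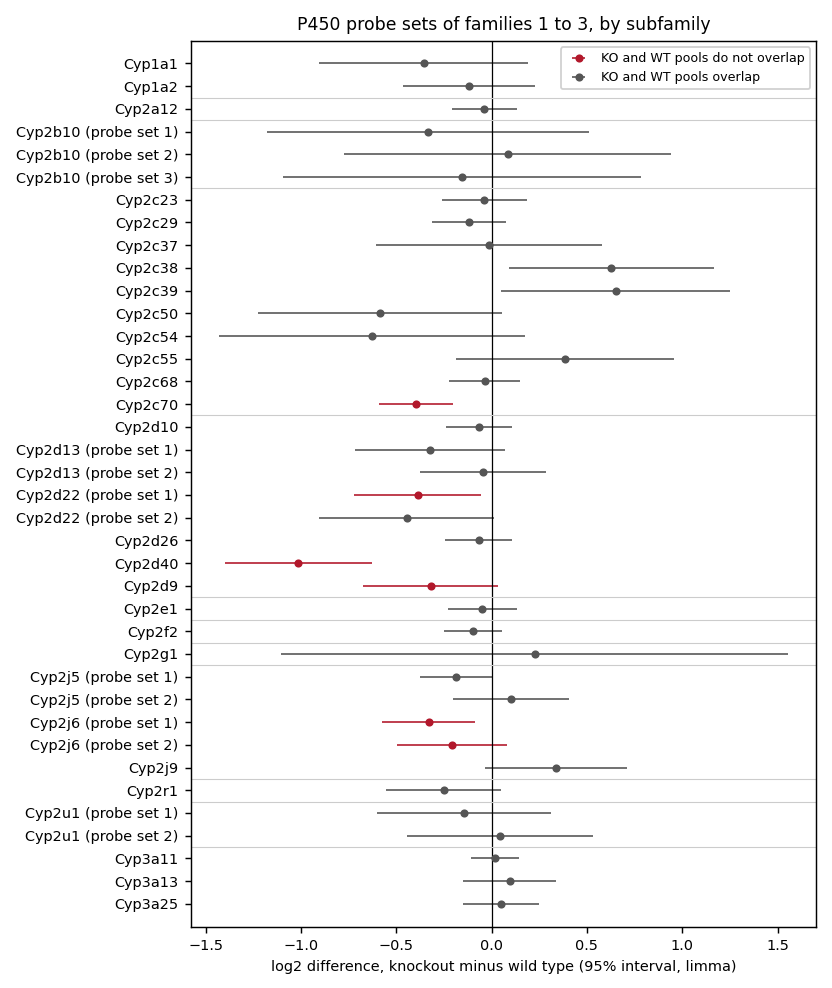
Log2 difference in intensity, KO minus WT (horizontal axis), with 95% limma intervals for the 38 tested probe sets, grouped by subfamily down the page and drawn in red where the 3 KO and 3 WT pools do not overlap. Points run from -1.01 (Cyp2d40) to 0.65 (Cyp2c39), all 8 Cyp2d points lie left of 0, and all 3 Cyp3a points lie close to 0.

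KO pool 2 stood apart from the other KO pools for several members. It was the lowest of the 6 pools for 15 of the 38 member probe sets (39.5%), whereas it was the lowest for 20.2% of all tested probe sets. The next highest number was 8, for WT pool 3, and WT pool 1 was lowest for 1. Without KO pool 2, 20 of the 38 differences changed sign or moved by more than 1.5 times, and leaving out any other pool did so for 13 to 19. With each pool left out in turn, 32 of 38 did so at least once. The 6 that did not were Cyp2d40, Cyp2c70, Cyp2j9, Cyp2r1 and the brighter probe sets of Cyp2j5 and Cyp2j6.

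**Figure D2:**
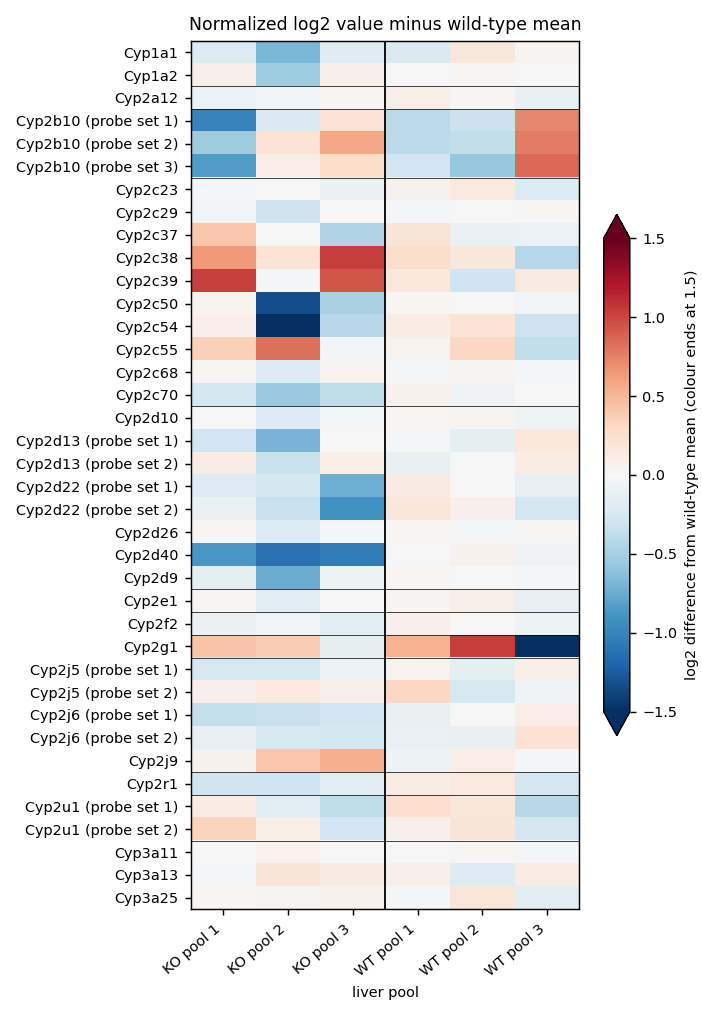
Normalised log2 value of each tested member probe set (lines down the page, by subfamily) in each liver pool (columns, KO pools left of WT pools), less the mean of the 3 WT pools, with colours ending at 1.5 in either direction. KO pool 2 is the lowest pool for 15 of the 38 probe sets.

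Libraries matched their labels at the targeted gene. The brightest Nfe2l2 probe set read 5.74, 7.40 and 6.90 in KO pools, against 696, 598 and 625 in WT pools, a log2 difference of -5.64 ± 0.15 (SE; limma adjusted p = 2.22e-06). Array brightness, as a trimmed mean, was 92.0, 101 and 120 in KO pools, against 131, 91.9 and 127 in WT pools. The ratio of 3' to 5' actin control signal was 1.94, 1.96 and 2.01 in KO pools, against 1.77, 1.94 and 1.88 in WT pools, and its part in the results was not tested. Hepatocyte markers were bright on every array: their 6 tested genes summed to between 64640 and 70375 in KO pools and between 67465 and 70469 in WT pools, and 0 had an unadjusted p under 0.05 with limma. All 6 stellate cell markers were higher in KO livers, by a median log2 difference of 0.17, where 51.4% of all genes were higher. An unadjusted p under 0.05 with limma was reached by 1 of the 6 (Des, 1.00 ± 0.31), against 8.23% of all genes. The 6 stellate markers summed to 2860 to 3772 in KO pools and 2374 to 3575 in WT pools. Of 6 endothelial markers, 4 were higher (median 0.19), summing to 1953 to 2545 in KO pools and 1781 to 2758 in WT pools. Kupffer cell markers were split, with 3 of 6 higher, and both tested cholangiocyte markers were lower. The part of these cells in the P450 values was not tested.

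The Cyp2d subfamily, which in mice holds several close copies beside the single active human gene CYP2D6, lay lower in KO livers at its tested probe sets. All 8 of its tested probe sets, of 6 genes, had a log2 difference below 0, against 49.2% of all probe sets, with a median of -0.32. Of the 8, 0 passed the test and 2 had an unadjusted p under 0.05 with limma, against 7.63% of all probe sets. Without KO pool 2, 7 of the 8 Cyp2d probe sets were below 0 and the median was -0.12. Without WT pool 3, 7 of 8 were below 0 and the median was -0.29. Probe sets of such similar genes may share signal, so neither their gene names nor their number counts as independent evidence.

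Cyp2d40 had the lowest p of any member. Its probe set read 21.1, 18.3 and 22.7 in KO pools, against 58.5, 42.4 and 54.6 in WT pools. Every KO pool was below every WT pool. The mean was 20.7 ± 2.25 in KO livers and 51.8 ± 8.41 in WT livers (SD, n = 3 each), and the log2 difference was -1.01 ± 0.17 (SE), or 2.02-fold lower, with a limma adjusted p of 0.101. With any 1 pool left out the log2 difference stayed between -1.09 and -0.96. Its KO values lie just above the brightness needed for testing, an intensity of about 17.0, and the probe set was not tested under a stricter brightness filter.

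Cyp2d22, often taken as the mouse relative of human CYP2D6, has 2 tested probe sets. The brighter read 945, 1012 and 851 in KO pools, against 1670, 1091 and 1374 in WT pools. All KO values lie below all WT values, though WT pool 2 comes close to KO pool 2. The log2 difference was -0.39 ± 0.15 (limma adjusted p = 0.606). The second probe set read 778, 731 and 579 in KO pools, against 1340, 889 and 979 in WT pools, with a log2 difference of -0.45 ± 0.20 (limma adjusted p = 0.66), and its pools, separate in intensity, overlapped on the normalised scale. Without KO pool 3 the differences were -0.22 at the first probe set and -0.21 at the second.

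Cyp2d9, the testosterone 16-alpha-hydroxylase known as male-biased in mouse liver, was the brightest Cyp2d probe set. It read 5698, 4076 and 7006 in KO pools, against 7848, 6830 and 7578 in WT pools. KO pool 2 was the lowest, and KO pool 3 lay above WT pool 2 in intensity, although the normalised values of the genotypes did not overlap. The log2 difference was -0.32 ± 0.16 (limma adjusted p = 0.686) and was -0.11 without KO pool 2.

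The remaining Cyp2d probe sets were closer to 0. Cyp2d10 and Cyp2d26, both abundant in liver, had log2 differences of -0.07 ± 0.08 each, their 95% intervals reaching from -0.24 to 0.11 and from -0.24 to 0.10. Without KO pool 2 they were at -0.0035 for Cyp2d10 and -0.0027 for Cyp2d26. Cyp2d13, annotated by RefSeq as a transcribed pseudogene, had differences of -0.33 ± 0.17 and -0.05 ± 0.15 at its 2 probe sets, which were -0.14 and 0.10 without KO pool 2. All 4 of these probe sets had overlapping pools. Cyp2d12 and Cyp2d34 were below the brightness needed for testing. With no brightness filter Cyp2d12 was at -0.34 ± 0.27 and Cyp2d34, in the other direction, at 0.32 ± 0.41.

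The Cyp2c subfamily, whose products epoxidise arachidonic acid and hydroxylate steroids, retinoids and bile acids, differed in both directions. Of 10 tested probe sets, each annotated to a different gene, 3 were higher and 7 lower in KO livers, with a median log2 difference of -0.04. As with Cyp2d, probe sets of similar Cyp2c genes may share signal, so their number does not count as independent evidence. None passed the test. At an unadjusted p under 0.05 with limma, 2 of 10 were higher, against 3.75% of all probe sets, and 1 was lower, against 3.88%.

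Cyp2c70, which makes muricholic acids from chenodeoxycholic acid in mouse liver, was the lower one. Its probe set read 5582, 4877 and 6213 in KO pools, against 8535, 7100 and 8108 in WT pools. Every KO pool was below every WT pool, as for Cyp2d40. The mean was 5557 ± 668 in KO livers and 7914 ± 737 in WT livers (SD, n = 3 each), a log2 difference of -0.40 ± 0.08 or 1.32-fold lower (95% interval -0.59 to -0.20; limma adjusted p = 0.252). With any 1 pool left out the difference lay between -0.46 and -0.32.

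Cyp2c38 and Cyp2c39, the second known to hydroxylate retinoic acid, were the 2 higher ones, and in both the pools overlapped. Cyp2c38 read 460, 372 and 798 in KO pools, against 509, 331 and 303 in WT pools, a log2 difference of 0.63 ± 0.24 or 1.55-fold higher (limma adjusted p = 0.606). KO pool 3 was the highest, and WT pool 1 exceeded the other 2 KO pools in intensity. On the normalised scale WT pool 1 exceeded KO pool 2 only. The Cyp2c38 difference was 0.42 without KO pool 3 and 0.41 without WT pool 3. Cyp2c39 read 948, 497 and 1166 in KO pools, against 744, 378 and 713 in WT pools, a log2 difference of 0.65 ± 0.26 or 1.57-fold higher (limma adjusted p = 0.62). Here KO pools 1 and 3 were above every WT pool and KO pool 2 was not. Without KO pool 2 the Cyp2c39 difference was 0.98, with a limma adjusted p of 0.149, in a range of 0.149 to 0.923 over all alternatives.

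Cyp2c50 and Cyp2c54, epoxygenases of arachidonic and linoleic acid in mice, showed the reverse pattern. Cyp2c50 read 3574, 1477 and 3111 in KO pools, against 4500, 3631 and 4393 in WT pools, a log2 difference of -0.59 ± 0.28 (limma adjusted p = 0.679). Cyp2c54 read 1229, 430 and 1141 in KO pools, against 1759, 1363 and 1300 in WT pools, a log2 difference of -0.63 ± 0.35 (limma adjusted p = 0.735). In both, KO pool 2 was far below the rest. Without it the differences were -0.22 for Cyp2c50 and -0.17 for Cyp2c54.

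The other Cyp2c probe sets, of which Cyp2c29 is a phenobarbital-inducible epoxygenase, had unadjusted p above 0.05. Cyp2c29 read 8782, 7508 and 9890 in KO pools, against 10008, 10000 and 10206 in WT pools, a log2 difference of -0.12 ± 0.09 (limma adjusted p = 0.792). All 3 KO intensities were below all 3 WT intensities, but the normalised values overlapped, and without KO pool 2 the Cyp2c29 difference was -0.02. Cyp2c23 and Cyp2c68 each had a difference of -0.04 (0.04 for Cyp2c68 without KO pool 2), and Cyp2c37, dim on every array, of -0.01. Cyp2c55 was at 0.38 ± 0.25, with 67.1, 102 and 62.2 in KO pools against 74.4, 62.8 and 52.3 in WT pools, and was at 0.16 without KO pool 2. Cyp2c65 was too dim to be tested.

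The Cyp2j subfamily holds further fatty acid epoxygenases. Of its 5 tested probe sets, 2 were higher and 3 lower in KO livers. Both Cyp2j6 probe sets were lower without overlap of the normalised values. The first read 169, 186 and 230 in KO pools, against 290, 218 and 326 in WT pools, with a log2 difference of -0.33 ± 0.11 (limma adjusted p = 0.539). The second read 175, 175 and 206 in KO pools, against 256, 175 and 307 in WT pools, with a log2 difference of -0.21 ± 0.13 (limma adjusted p = 0.746), which was -0.10 without WT pool 3. WT pool 2, the array with the lowest trimmed mean, was the lowest WT pool in both, and its intensities were within the KO range or at its edge.

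Cyp2j5, the abundant member in mouse liver and kidney, had 2 probe sets that went different ways. The brighter read 4123, 4411 and 5503 in KO pools, against 6313, 4550 and 6512 in WT pools, a log2 difference of -0.19 ± 0.08 (limma adjusted p = 0.656). The dimmer was at 0.10 ± 0.13. Pools overlapped at both. Cyp2j9 read 56.8, 79.9 and 100 in KO pools, against 71.4, 56.3 and 71.1 in WT pools, a difference of 0.34 ± 0.16. Cyp2j11 and Cyp2j13 were too dim to be tested.

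**Figure D3:**
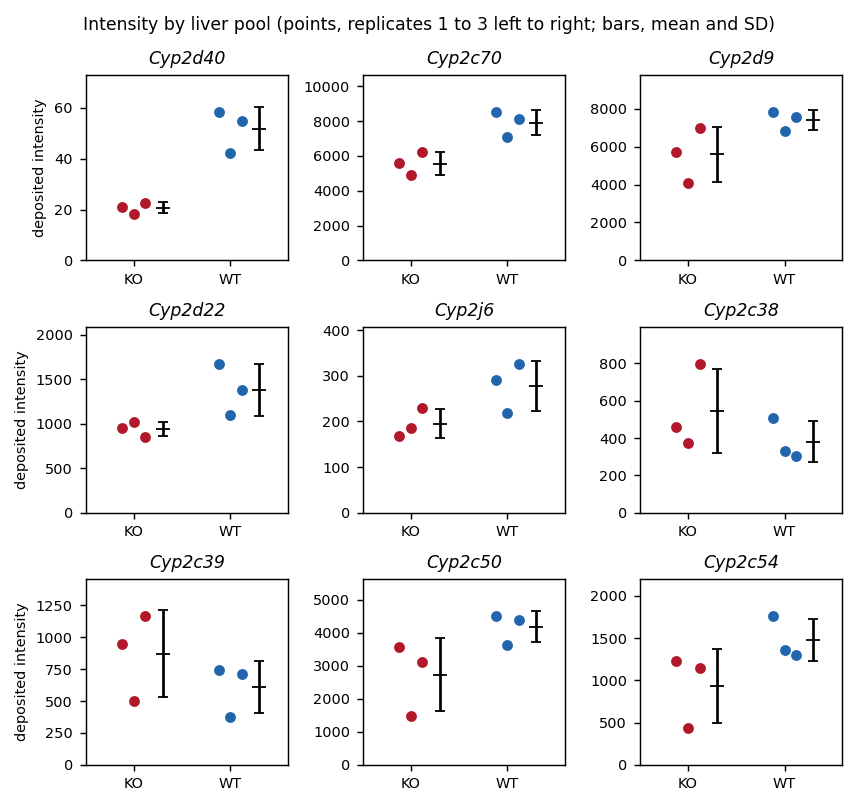
Deposited intensity in each liver pool (points; vertical axis from 0 in each panel) of 9 P450 genes, KO left of WT, with the mean and SD beside the points; genes with several probe sets show the brightest. For Cyp2d40 the KO pools lie between 18.3 and 22.7 and the WT pools between 42.4 and 58.5, while for Cyp2c50 and Cyp2c54 KO pool 2, the middle point, is the lowest of all.

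The promoters of Cyp2d40, Cyp2c70 and Cyp2j6, the genes with the smallest p among the Cyp2d, Cyp2c and Cyp2j members, are shown for reading beside their values, since Nrf2 acts through antioxidant response elements. Each is the window that the RefSeq promoter table (GRCm38.p6, minus strand) gives as 250 bases before to 50 bases after a start of the gene, at chr15:82764073-82764372, chr19:40187237-40187536 and chr4:96553602-96553901. The Cyp2d40 and Cyp2c70 windows lie at the 5' end of the gene as annotated, whereas the Cyp2j6 window lies inside its annotated gene, downstream of the 5' end, so the sequence at that end is not shown. Capitals mark a match to the element's core, TGACNNNGC, on either strand.
Cyp2d40: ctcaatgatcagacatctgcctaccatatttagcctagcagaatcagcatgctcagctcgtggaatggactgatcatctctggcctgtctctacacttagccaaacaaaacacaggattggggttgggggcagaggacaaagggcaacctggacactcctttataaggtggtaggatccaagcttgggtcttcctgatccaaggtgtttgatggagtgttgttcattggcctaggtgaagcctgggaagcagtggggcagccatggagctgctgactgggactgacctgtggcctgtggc
Cyp2c70: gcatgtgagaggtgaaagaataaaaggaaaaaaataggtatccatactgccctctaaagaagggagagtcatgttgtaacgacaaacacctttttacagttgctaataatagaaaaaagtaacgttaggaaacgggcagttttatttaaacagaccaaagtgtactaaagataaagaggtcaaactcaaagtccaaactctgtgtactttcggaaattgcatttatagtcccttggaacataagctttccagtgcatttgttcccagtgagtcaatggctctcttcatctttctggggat
Cyp2j6: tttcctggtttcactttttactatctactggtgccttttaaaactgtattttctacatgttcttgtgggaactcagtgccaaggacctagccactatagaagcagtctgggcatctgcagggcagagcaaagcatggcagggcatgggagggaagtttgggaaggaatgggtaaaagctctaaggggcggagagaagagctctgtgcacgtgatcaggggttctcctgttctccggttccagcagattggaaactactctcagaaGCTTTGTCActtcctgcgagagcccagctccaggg
The core letters were found in the Cyp2j6 window and were not found in the Cyp2d40 and Cyp2c70 windows. Over the 38 windows available for 35 member genes, 2 held a match (5.26%, Cyp2j6 and Cyp2c65), against 12.4% of all 32851 promoter windows of this length. A match is a description of the letters, and nothing about binding follows from its presence or absence in this window.

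The Cyp1 family, whose Cyp1a2 metabolises caffeine and aromatic amines and whose Cyp1a1 oxidises polycyclic aromatic hydrocarbons, showed no tested difference. Cyp1a2 read 4321, 3120 and 5202 in KO pools, against 5098, 4139 and 5323 in WT pools, a log2 difference of -0.12 ± 0.15 (limma adjusted p = 0.902). KO pool 2 was again the lowest. Without it the Cyp1a2 difference was 0.09. Cyp1a1, near the brightness limit, was at -0.36 ± 0.24 (-0.19 without KO pool 2), and all 3 Cyp1b1 probe sets were too dim to be tested.

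Cyp2a, Cyp2e and Cyp2f have 1 tested probe set each, all of abundant liver enzymes. Cyp2e1, which oxidises ethanol and acetaminophen, read 11365, 10110 and 11650 in KO pools, against 12451, 12648 and 11096 in WT pools, a log2 difference of -0.05 ± 0.08 (limma adjusted p = 0.923). Cyp2a12, a hydroxylase of steroids and bile acids, was at -0.04 ± 0.07, and Cyp2f2, known for bioactivating naphthalene, at -0.10 ± 0.07. Their 95% intervals ran from -0.23 to 0.13 for Cyp2e1, from -0.21 to 0.13 for Cyp2a12 and from -0.25 to 0.05 for Cyp2f2. The brightest probe sets approach the highest intensity on any array, 16555, and whether this compresses differences was not tested.

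The Cyp3a probe sets, including Cyp3a11, the main drug-oxidising Cyp3a of mouse liver, sat close to 0. Cyp3a11 read 10904, 11503 and 11192 in KO pools, against 11725, 11872 and 11244 in WT pools, a log2 difference of 0.02 ± 0.06 (95% interval -0.11 to 0.14; limma adjusted p = 0.967). Cyp3a25 was at 0.05 ± 0.09 and Cyp3a13 at 0.09 ± 0.11. Pools overlapped at all 3. Cyp3a16 and Cyp3a44 were too dim to be tested.

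Cyp2b10, a sensitive target of the constitutive androstane receptor, was dim and spread widely. Its brightest probe set read 26.6, 52.8 and 83.3 in KO pools, against 58.6, 43.3 and 129 in WT pools, a log2 difference of -0.33 ± 0.37 (limma adjusted p = 0.878). At all 3 Cyp2b10 probe sets KO pool 1 was the lowest and WT pool 3 the highest in intensity. The other 2 were at 0.08 ± 0.38 and -0.16 ± 0.41. The 95% interval of the brightest ran from -1.18 to 0.51. Those of the other 2 ran from -0.78 to 0.94 and from -1.09 to 0.78. The intervals include sizeable changes, for the brightest mainly towards lower KO values.

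The remaining subfamilies have genes of narrower known roles. Cyp2r1, a vitamin D 25-hydroxylase, read 196, 210 and 277 in KO pools, against 370, 264 and 276 in WT pools, a log2 difference of -0.25 ± 0.13 (limma adjusted p = 0.712). Cyp2u1, which hydroxylates long-chain fatty acids, was at -0.15 ± 0.20 and 0.05 ± 0.21 at its 2 probe sets. Cyp2g1, best known from olfactory mucosa, was at 0.22 ± 0.58, and WT pool 3 (4.26) alone lay far below the other pools, which were between 20.3 and 40.5. Cyp2s1 was too dim to be tested. With no brightness filter, 0 of the 14 dim member probe sets passed or reached an unadjusted p under 0.05 with limma. The share of all probe sets at that unadjusted p was then 6.41%.

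Genes that serve these enzymes were compared from lists of partners, regulators and heme supply. Of 48 such genes tested, 0 passed and 9 had an unadjusted p under 0.05 with limma, against 8.23% of all genes, the smallest adjusted p being 0.319. P450 oxidoreductase (Por) and Fdxr were not analysed here.

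Among 7 electron-transfer and heme-binding partners, 5 were lower and 2 higher in KO livers, where 51.4% of all genes were higher. Their median log2 difference was -0.19. Pgrmc1, a membrane heme protein that binds P450s, read 8155, 8201 and 8914 in KO pools, against 10881, 10290 and 9675 in WT pools, a log2 difference of -0.21 ± 0.06 (limma adjusted p = 0.496). Cyb5b, a cytochrome b5 of the outer mitochondrial membrane, read 1849, 1934 and 2017 in KO pools, against 2916, 2355 and 2625 in WT pools, a log2 difference of -0.31 ± 0.10 (limma adjusted p = 0.536). Pools did not overlap at these 2 of the 7 genes, against 13.9% of all genes. Cyb5a, the microsomal cytochrome b5 that stimulates several P450 reactions, was at -0.14 ± 0.08.

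Among 32 tested regulators the median log2 difference was -0.07, with 4 of 32 higher and 2 lower at an unadjusted p under 0.05 (18.8% together, against 8.23% of all genes). The receptors of the inducible subfamilies lay on both sides of 0. Ahr was at 0.07 ± 0.14 and Nr1i2 at 0.28 ± 0.12, while Nr1i3 read 319, 209 and 423 in KO pools, against 629, 414 and 392 in WT pools, a difference of -0.44 ± 0.23 (limma adjusted p = 0.715). Cebpb, a liver transcription factor, read 512, 340 and 1089 in KO pools, against 1332, 961 and 2130 in WT pools, a difference of -1.11 ± 0.33 (limma adjusted p = 0.487). Nr5a2, a nuclear receptor of bile acid genes, was at 0.49 ± 0.11 (limma adjusted p = 0.319).

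Heme is the cofactor of every P450. Of 9 heme supply genes, 4 were higher and 5 lower in KO livers. Alas1, the rate-limiting enzyme of heme synthesis, read 560, 227 and 5082 in KO pools, against 1224, 1771 and 4443 in WT pools, a log2 difference of -1.11 ± 0.93 (limma adjusted p = 0.823). Pool 3 was the highest in both genotypes, and the groups overlapped. Uros, a later enzyme of the pathway, was at -0.28 ± 0.11 (limma adjusted p = 0.63). It was among 2 of the 9 genes whose pools did not overlap, against 13.9% of all genes.

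**Figure D4:**
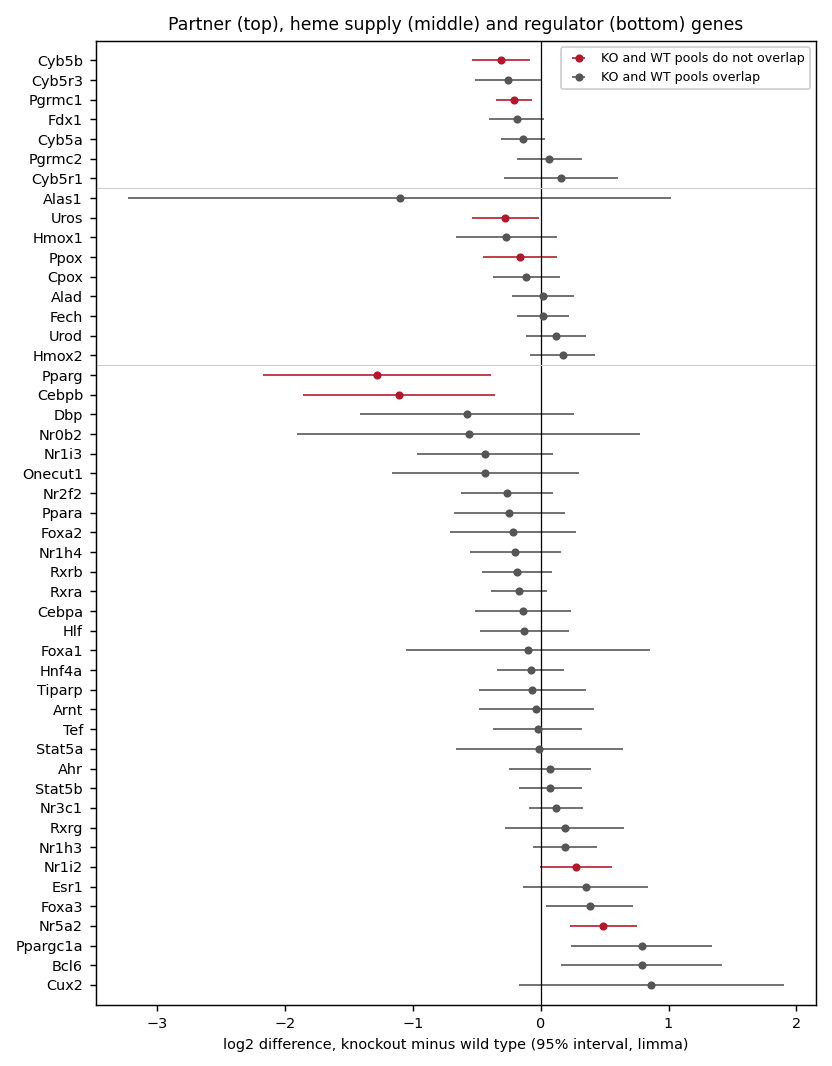
Log2 difference in intensity, KO minus WT (horizontal axis), with 95% limma intervals for 48 tested partner (top), heme supply (middle) and regulator (bottom) genes, red where KO and WT pools do not overlap. The widest interval of the heme group is that of Alas1 (-1.11 ± 0.93 SE), and none of the 48 passed the adjusted threshold.

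Markers that vary with P450 levels in mouse liver were read beside the members. Of 14 tested male-biased genes, which include the members Cyp2d9 and Cyp2u1 and also Cyp7b1 of another family, 11 were lower in KO livers. The other 3 were higher, where 51.4% of all genes were higher, and 0 of the 14 passed. The marker lists can share genes with the other lists, so they are not separate evidence. An unadjusted p under 0.05 was reached by 5 of the 14 (4 lower and 1 higher), against 8.23% of all genes, and the smallest adjusted p, that of Ugt2b38, was 0.0741 with limma. Of 12 female-biased genes on the arrays, 7, which include Cyp2g1, were bright enough to be tested. All 7 were higher, where 51.4% of all genes were higher, and 0 passed. An unadjusted p under 0.05 with limma was reached by 2 of the 7, against the same 8.23%. Brightness is the mean over both genotypes, so a gene dim in WT livers can be tested through its KO pools alone. The count of higher genes is thus not a test. Without WT pool 3, Cyp2g1 was at -0.55. The 7 tested female-biased genes summed to 300, 721 and 340 in KO pools, against 252, 189 and 293 in WT pools, so KO pool 2 was the highest. The Y-linked Eif2s3y read 432, 466 and 659 in KO pools, against 767, 497 and 786 in WT pools, and no Xist probe set exceeded 13.9 on any array. Of 14 pericentral genes, the zone in which most of these P450s are richest, 8 were lower and 0 had an unadjusted p under 0.05. Glul, a pericentral marker, read 2663, 1794 and 3881 in KO pools, against 3598, 3769 and 3877 in WT pools, again with KO pool 2 lowest. Of 13 periportal genes, 2 were higher at an unadjusted p under 0.05 (15.4%, against 8.23% of all genes) and 0 passed. The part of these markers in the P450 values was not tested.

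The P450 genes of other families stood beside these members on the same arrays. Of 26 tested probe sets in 20 genes, 0 passed and 9 had an unadjusted p under 0.05 with limma (34.6%). The share was 6 of 38 (15.8%) in families 1 to 3 and 7.63% over all probe sets. The median absolute log2 difference was 0.29 in the other families, against 0.17 in families 1 to 3 and 0.13 over all probe sets. The difference between the families was not tested.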

How the data were processed

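Liver RNA of 3 KO and 3 WT pools was hybridised to 1-colour arrays with biotin labelling, per the labels. The authors deposited linear probe set intensities, from 0.0174 to 16555 as read from the values. Software named in the submitters' processing notes is GCOS 1.4, and the sources used here give no signal algorithm or scaling. Gene names came from the platform annotation (34945 with 1 gene, 932 with several, 9160 with none here), symbols being updated through Entrez identifiers and GRCm38.p6 names; no member's symbol changed. Promoter sequences are RefSeq's.

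Values were taken as log2(intensity + 5.26), the 25th percentile being the pseudocount, and were quantile normalised. Without the 64 controls, 22519 probe sets with a mean at or above the median were tested with limma 3.58.1 in R 4.3.3 (lmFit, eBayes with trend), with Benjamini-Hochberg adjustment and a threshold of 0.05. A gene took its brightest tested probe set. Named members are those at an unadjusted p under 0.05 and, per subfamily, the brightest and the one with the smallest p; Cyp2c50 and Cyp2c54 were chosen after their values were seen. Members and lists were chosen with earlier results of these data known. The number of arrays limits the precision. Alternatives were median centring, pseudocounts of 1.31 and 21.0, no filter, a 70th percentile filter, no trend, array weights, a replicate block and each pool left out. The code was tested on simulated data.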

Additional observations from a re-analysis of the deposited data

How the results depend on the processing

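No member probe set passed under any of the 14 alternatives, the smallest member adjusted p running from 0.0584 without the intensity trend (Cyp2d40) to 0.476 without WT pool 2. Over all probe sets the count past the threshold was 32, and it was 20 with no filter, 19 with a 70th percentile filter, 18 without the intensity trend, 41 with median centring, 40 with array weights and between 18 and 29 with a pool left out. Replicate numbers were not taken as pairing the pools, because the labels do not say that they do. Correlations of same-numbered deviations were 0.13, 0.05 and 0.25, and those of differently numbered ones ran from -0.19 to 0.10. Whether same-numbered pools share a batch was not tested. When fitted with a replicate block, 32 probe sets passed in all and 0 members did, while 12 members had an unadjusted p under 0.05, in place of 6 without the block; the share of all probe sets was then 8.89%. The other alternatives gave between 4 and 9 members, where the share of all probe sets ran from 5.50% to 9.68%. Leaving out a pool gave between 5 and 9 members, with the share over the same range. The partner, regulator and heme supply count, whose alternatives were chosen after seeing the data, was 0 throughout. With a pool left out, 15 of the 38 member probe sets changed sign at least once, all with a difference of at most 0.33 in size and an adjusted p of at least 0.878 with all pools. Among members chosen by the naming rule these were Cyp2e1 (0.0082 without KO pool 2, lowest -0.11), Cyp3a13 (-0.0032 without WT pool 2, highest 0.16), Cyp2a12 (0.0028 without WT pool 1, lowest -0.10), Cyp1a2 (0.088 without KO pool 2, lowest -0.22), Cyp2b10 (0.028 without WT pool 3, lowest -0.61) and Cyp2g1 (-0.55 without WT pool 3, highest 0.75). The others were a probe set each of Cyp2c23, Cyp2c37, Cyp2c68, Cyp2d13, Cyp2j5, Cyp2u1 and Cyp3a25 and the dimmer probe sets of Cyp2b10. Median centring left 27 of 38 members lower and moved the median of all probe sets to -0.03.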

Other observations

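A pair of P450 probe sets named for several genes lay outside the members. The probe set shared by Cyp2a5, a coumarin 7-hydroxylase, and Cyp2a4, a steroid hydroxylase, read 1200, 2916 and 1809 in KO pools, against 4837, 3711 and 4148 in WT pools. Its pools did not overlap, and the log2 difference was -1.08 ± 0.24 (limma adjusted p = 0.279). Without KO pool 2, its highest KO pool, the difference was -1.40 with an adjusted p of 0.00884, in a range of 0.00884 to 0.805 over all alternatives. The probe set shared by the female-biased Cyp3a41a and Cyp3a41b read 189, 1236 and 116 in KO pools, against 101, 69.6 and 135 in WT pools, a log2 difference of 1.72 ± 0.74 (limma adjusted p = 0.643), which was 0.70 without KO pool 2. These values stand alone, and which of the paired genes gave the signal was not tested.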
